A study of Mus musculus with 6 samples.

Results

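The NFκB family was described at the transcript level in hearts of mice with angiotensin II (Ang II)-induced hypertrophy, with or without tectochrysin (Tec), a plant flavonoid. The 10 genes were chosen by name from the 30914 genes of the deposited expression table, whatever their values: 5 subunits of the transcription factor (Nfkb1, Nfkb2, Rel, Rela and Relb) and 5 inhibitors (Nfkbia, Nfkbib, Nfkbie, Nfkbiz and Tnfaip3). All 10 were in the table. The 6 mice were wild-type C57BL/6J males, 8 weeks old, and all of them received Ang II at 1 μg/kg/min from an osmotic pump for 4 weeks. The Ang II group (n = 3) received nothing else that the labels name, and the Ang II + Tec group (n = 3) also received Tec at 5 mg/kg in the last 2 weeks. A group without Ang II was not analysed here, so every comparison is of Ang II + Tec with Ang II. RNA came from heart tissue as a whole, in which fewer cells of a type and less RNA per cell cannot be told apart.

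NFκB is a family of dimeric transcription factors that switch on genes of inflammation, survival and immunity. In resting cells the dimers are held in the cytoplasm by IκB proteins. Signals from cytokine receptors, Toll-like receptors and the DNA sensor STING activate the IκB kinase (IKK) complex, the IκB protein is degraded and the dimer enters the nucleus. Several inhibitors are themselves NFκB target genes, so that their transcripts are often read as a sign of recent activity. In the heart, the family takes part in the inflammatory response of cardiomyocytes, fibroblasts, endothelial cells and macrophages. The activity itself is set by protein degradation and transport, which transcript levels do not measure.

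None of the 8 genes of the family that were tested differed between the groups by the test, and the groups overlapped for each of the 10. The mean of log2(FPKM + 1) was lower with Tec for 9 of 10 genes, that is, for 5 of 5 subunits and 4 of 5 inhibitors. Nfkbia was the exception. For Tnfaip3 the difference was only -0.0012, and its mean FPKM was 0.397 in both groups. A lower mean was also found for 80.0% of the 13089 genes tested, and the median log2 fold change of the 10 genes (-0.17) was equal to that of all tested genes (-0.17) to 2 decimals. The median was -0.21 over the 5 subunits and -0.041 over the 5 inhibitors. After scaling of the libraries by the median of ratios, which moved the median of all genes to 0.0087, the mean was lower for 5 of 10 genes. The fit was made with limma on log2(FPKM + 1), where FPKM counts fragments relative to transcript length and library depth, and the p-values were adjusted by Benjamini-Hochberg over all tested genes. A call needed an adjusted p under 0.05 and a log2 fold change of 1 or more in size. This held for 0.160% of the tested genes and for 0 of the 8 tested members. At an unadjusted p under 0.05, 16.5% of the tested genes were lower and 2.09% were higher with Tec, against 0 of the 8 tested members in either direction. The groups did not overlap for 18.9% of the tested genes in the lower direction and 2.90% in the higher one, and they overlapped for each of the 10. Tested genes had at least 0.5 FPKM in at least 3 libraries, which 8 of the 10 genes did. Nfkbie and Tnfaip3 fell below this limit and were given an exact permutation test, in which 3 against 3 mice cannot reach a p below 0.1.

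The libraries differed in tissue content, which bears on every value that follows. Myl7, the atrial myosin light chain, reached 419 FPKM in heart 1 and 332 FPKM in heart 2 of the Ang II group, and 1040 FPKM in heart 2 of the Ang II + Tec group (Ang II 1, Ang II 2 and Ang II + Tec 2 from here on). It was listed at 0 in Ang II 3 and Ang II + Tec 1 and at 1.58 FPKM in Ang II + Tec 3. So 3 libraries held atrial transcripts, 2 with Ang II alone and 1 with Tec. Mitochondrial genes took 40.1% to 48.9% of the summed FPKM with Ang II and 49.6% to 52.5% with Ang II + Tec. A library's depth is not given by FPKM. The spacing of low values showed that 1 fragment per kilobase was worth 0.025 to 0.0315 FPKM. The limma p-values rest on the spread between these 3 mice of each group, moderated by the spread of all tested genes.

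The 5 subunits were all lower in mean with Tec, and none of them changed by the test. Rela encodes p65, the main transactivating subunit of the canonical pathway, and lies in the table at chr19:5637483-5648130 on the plus strand (ENSMUSG00000024927). The 3 Ang II hearts had 9.71, 9.79 and 6.87 FPKM, and the 3 Ang II + Tec hearts had 7.66, 9.89 and 6.58 FPKM. The highest heart of each group held atrial transcripts and the lowest did not, and the ranges of the groups nearly coincided. The mean was 8.79 ± 1.66 FPKM (SD, n = 3) with Ang II and 8.04 ± 1.69 FPKM (SD, n = 3) with Ang II + Tec. Its log2 fold change was -0.12, with a 95% interval from -0.55 to 0.32 and an adjusted p of 0.716 (limma). It was 0.10 after scaling by the median of ratios, so its sign depended on the scaling.

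Nfkb1 encodes p105, the precursor of p50, the usual partner of p65. The gene lies at chr3:135584655-135691546 on the minus strand (ENSMUSG00000028163). Its level was 4.43, 4.45 and 2.87 FPKM with Ang II and 2.58, 3.24 and 2.92 FPKM with Ang II + Tec. Ang II 1 and Ang II 2 stood above all other hearts, and Ang II 3 lay within the Ang II + Tec range. The mean was 3.92 ± 0.907 FPKM (SD, n = 3) against 2.91 ± 0.330 FPKM (SD, n = 3). Of the 8 tested members Nfkb1 had the lowest unadjusted limma p (0.0969), with a log2 fold change of -0.31 (95% interval -0.70 to 0.073, adjusted p = 0.324). It was -0.12 after scaling by the median of ratios.

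Nfkb2 encodes p100, which retains RelB in the cytoplasm and is processed to p52 in the non-canonical pathway. It lies at chr19:46304320-46312385 on the plus strand (ENSMUSG00000025225). The values were 3.95, 3.36 and 1.91 FPKM with Ang II and 2.25, 2.66 and 2.03 FPKM with Ang II + Tec. The lowest of the 6 hearts was an Ang II heart, Ang II 3, so the groups overlapped. A log2 fold change of -0.27 was obtained (95% interval -0.75 to 0.22, limma adjusted p = 0.456).

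Relb encodes the partner of p52 and lies at chr7:19606217-19629438 on the minus strand (ENSMUSG00000002983). It was at 1.84, 1.94 and 0.92 FPKM with Ang II and at 1.16, 1.41 and 0.97 FPKM with Ang II + Tec. The order of the hearts was close to that of Nfkb2, with Ang II 3 again lowest. Its log2 fold change was -0.21 (95% interval -0.65 to 0.22, limma adjusted p = 0.498).

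Rel encodes c-Rel, a subunit best known from lymphoid and myeloid cells, and lies at chr11:23736847-23770970 on the minus strand (ENSMUSG00000020275). It was the least abundant subunit, at 1.14, 1.20 and 0.78 FPKM with Ang II and 0.82, 1.08 and 0.73 FPKM with Ang II + Tec. The log2 fold change was -0.12 (95% interval -0.42 to 0.19, limma adjusted p = 0.588), and it was 0.0027 after scaling by the median of ratios. For Nfkb1, Nfkb2 and Relb, the adjusted p depended on Ang II 3. Without that heart, the log2 fold changes were -0.48 for Nfkb1, -0.49 for Nfkb2 and -0.41 for Relb. The limma adjusted p-values were then 0.0262, 0.0321 and 0.0477. An adjusted p under 0.05 was reached in that fit by 28.8% of all tested genes, and none of these genes reached a log2 fold change of 1 in size. Without Ang II 2, Nfkb1 moved towards 0 to -0.23 and Relb to -0.10, and without Ang II 1, Nfkb2 moved to -0.11. Without Ang II + Tec 2 they moved away from 0, to -0.37 for Nfkb1, -0.34 for Nfkb2 and -0.29 for Relb.

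**Figure D1:**
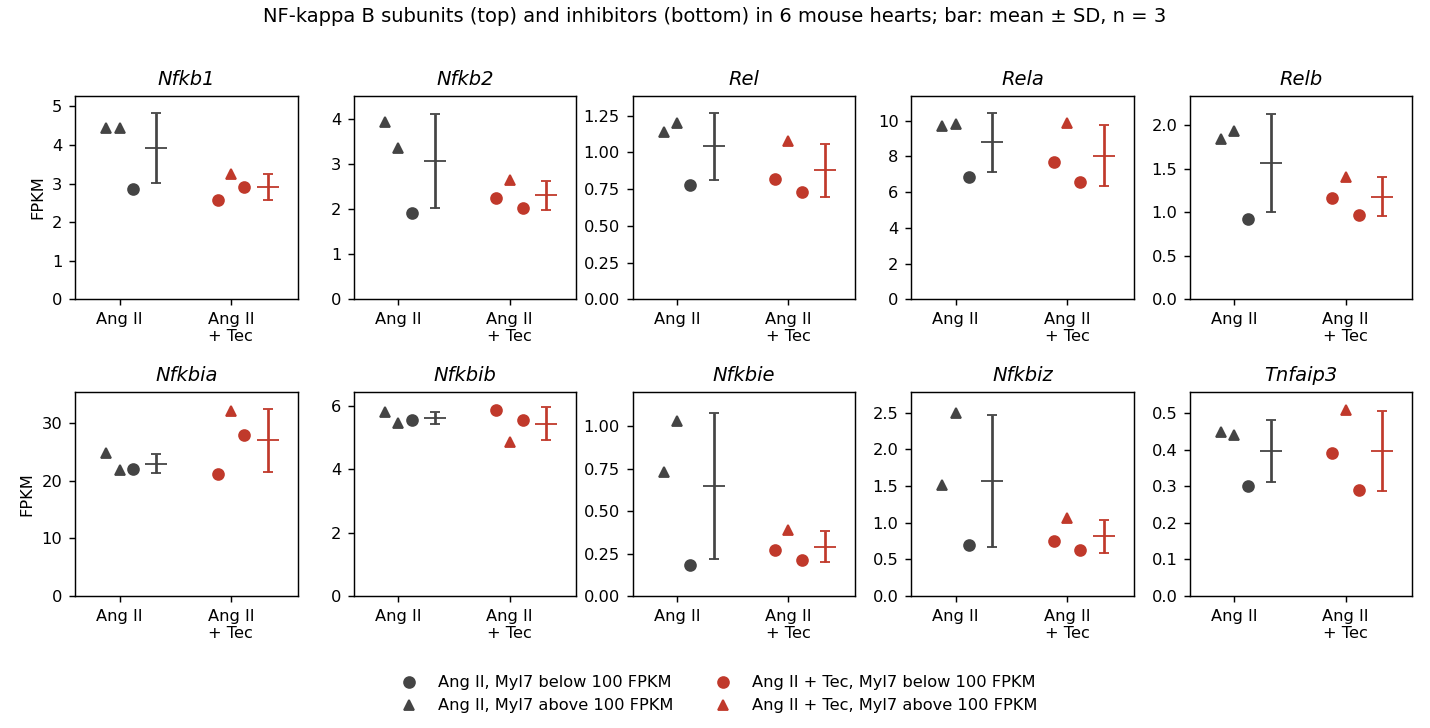
FPKM of the 5 subunits (top row) and the 5 inhibitors (bottom row) in each heart, with 1 point per mouse and a bar for the mean ± SD (n = 3). Triangles are the 3 libraries with Myl7 above 100 FPKM, and they lie above all circles for 8 of the 10 genes, the exceptions being Nfkbia and Nfkbib.

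The inhibitors were more varied. Nfkbia encodes IκBα, which binds p65 dimers and is resynthesised under NFκB control, and lies at chr12:55489410-55492647 on the minus strand (ENSMUSG00000021025). Its level was 24.87, 21.90 and 22.14 FPKM with Ang II and 21.26, 32.07 and 27.91 FPKM with Ang II + Tec. Both the highest and the lowest of the 6 hearts were Ang II + Tec hearts. The mean was 23.0 ± 1.65 FPKM (SD, n = 3) with Ang II and 27.1 ± 5.45 FPKM (SD, n = 3) with Ang II + Tec. This gave a log2 fold change of 0.21 (95% interval -0.17 to 0.59, limma adjusted p = 0.453), and of 0.45 after scaling by the median of ratios (limma adjusted p = 0.279). It ranged from 0.084 to 0.37 when single hearts were left out, the lowest value being without Ang II + Tec 2.

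Nfkbib encodes IκBβ, an IκB with slower turnover, and lies at chr7:28758251-28766640 on the minus strand (ENSMUSG00000030595). Its values lay close together, at 5.82, 5.46 and 5.56 FPKM with Ang II and 5.88, 4.87 and 5.57 FPKM with Ang II + Tec. On the log2 scale the change was -0.041 (95% interval -0.30 to 0.22, limma adjusted p = 0.837), and 0.17 after scaling by the median of ratios.

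Nfkbiz encodes IκBζ, an inducible nuclear protein that restrains some NFκB targets and is a co-activator of others. The gene lies at chr16:55811375-55838899 on the minus strand (ENSMUSG00000035356). The values were 1.51, 2.50 and 0.70 FPKM with Ang II and 0.75, 1.06 and 0.63 FPKM with Ang II + Tec. Ang II 1 and Ang II 2 were above the other hearts, with Ang II 3 within the Ang II + Tec range. The mean was 1.57 ± 0.902 FPKM (SD, n = 3) against 0.813 ± 0.222 FPKM (SD, n = 3). On log2(FPKM + 1), the log2 fold change of -0.45 was the furthest from 0 of the 10 genes (95% interval -1.04 to 0.14, limma adjusted p = 0.344). This rank depended on the value added to the FPKM. With 0.1 added in place of 1, Nfkbie was at -0.741 and Nfkbiz at -0.739. When single hearts were left out, the log2 fold change of Nfkbiz on log2(FPKM + 1) ranged from -0.72 to -0.20. The first was without Ang II 3, with a limma adjusted p of 0.0242, and the second without Ang II 2.

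The remaining inhibitors were below the limit set for testing. Nfkbie encodes IκBε, which holds mainly p65 and c-Rel, and lies at chr17:45555703-45563169 on the plus strand (ENSMUSG00000023947). It was at 0.73, 1.03 and 0.18 FPKM with Ang II and at 0.27, 0.39 and 0.21 FPKM with Ang II + Tec, with an exact two-sided permutation p of 0.4. The mean was 0.647 ± 0.431 FPKM (SD, n = 3) with Ang II and 0.290 ± 0.0917 FPKM (SD, n = 3) with Ang II + Tec. Ang II 3 was the lowest and Ang II 2 the highest of the 6 hearts. Tnfaip3 encodes A20, a ubiquitin-editing enzyme that stops signalling upstream of IKK, and lies at chr10:19000910-19015410 on the minus strand (ENSMUSG00000019850). It was at 0.45, 0.44 and 0.30 FPKM with Ang II and at 0.39, 0.51 and 0.29 FPKM with Ang II + Tec. The mean was 0.397 FPKM in both groups (SD 0.0839 and 0.110, n = 3 each), and the exact two-sided permutation p was 1.

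**Figure D2:**
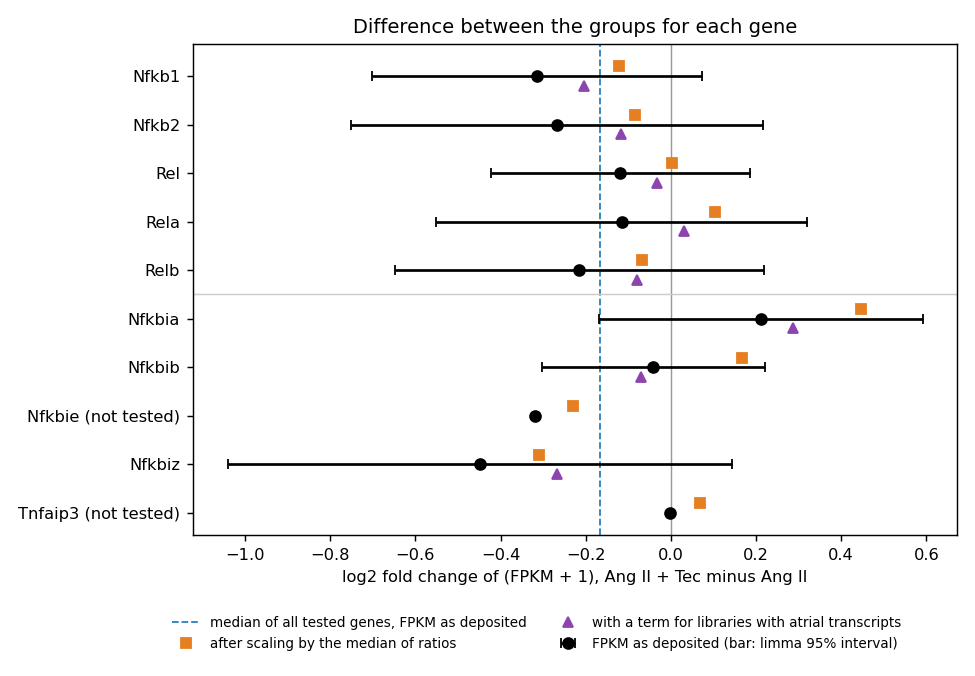
Log2 fold change of (FPKM + 1), Ang II + Tec minus Ang II, for each gene (x axis), with the limma 95% interval for the 8 tested genes. Every interval includes 0; orange squares give the value after scaling by the median of ratios, where Rel, Rela, Nfkbib and Tnfaip3 change sign, purple triangles the value with a term for atrial transcripts, where Rela changes sign (as does Tnfaip3, which was not tested and has no triangle), and the dashed line is the median of all tested genes (-0.17).

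Levels were spread over a wide range, and since FPKM is a level per length, genes can be compared within a library. The mean over 6 hearts was 25.0 FPKM for Nfkbia, 8.42 for Rela, 5.53 for Nfkbib, 3.42 for Nfkb1 and 2.69 for Nfkb2. Relb (1.37 FPKM), Nfkbiz (1.19), Rel (0.958), Nfkbie (0.468) and Tnfaip3 (0.397) followed. Nfkbia thus stood at percentile 90.7 of the tested genes, Rela at 74.0 and Rel at 14.5. The order held in 6 of 6 hearts for each pair of neighbours down to Relb, and for Rel above Nfkbie. The other neighbours were not ordered in all hearts: Relb was above Nfkbiz in 5 of 6, Nfkbiz above Rel in 2 of 6 and Nfkbie above Tnfaip3 in 2 of 6.

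The make-up of the subunit pool, which does not depend on the scaling of a library, was similar in the 6 hearts. Rela was 46.1%, 47.2% and 51.5% of the summed subunit FPKM with Ang II and 52.9%, 54.1% and 49.7% with Ang II + Tec. The mean share was 48.3% ± 2.84 (SD, n = 3) against 52.3% ± 2.26 (SD, n = 3), and the groups overlapped. The Nfkb1 share was 21.03%, 21.46% and 21.50% with Ang II, and 17.83%, 17.72% and 22.07% with Ang II + Tec, so that the last heart lay above all Ang II hearts. Rel kept to 5.41% to 5.91% in all 6 hearts.

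The balance of inhibitor to subunit transcripts depended on which genes stood for each class. The Nfkbia to Rela ratio was 2.56, 2.24 and 3.22 with Ang II and 2.78, 3.24 and 4.24 with Ang II + Tec. Ang II 3 lay among the Ang II + Tec hearts, and the means of 2.67 ± 0.503 and 3.42 ± 0.749 (SD, n = 3 each) differed by about the spread within the groups. The ratio of Nfkbia to the sum of the 5 subunits was 1.18, 1.06 and 1.66 with Ang II and 1.47, 1.75 and 2.11 with Ang II + Tec. By contrast, the median log2(FPKM + 1) of the 5 inhibitors minus that of the 5 subunits was lower with Tec. In every heart the inhibitor median was the value of Nfkbiz and the subunit median that of Nfkb2. The score is therefore Nfkbiz minus Nfkb2, and the levels of the other genes did not enter it. It was -0.98, -0.32 and -0.78 with Ang II and -0.89, -0.83 and -0.89 with Ang II + Tec. The difference between the group means was -0.18 on the log2 scale, and it was 0.0054 without Ang II 2. No test was made on these scores, since the genes were chosen.

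**Figure D3:**
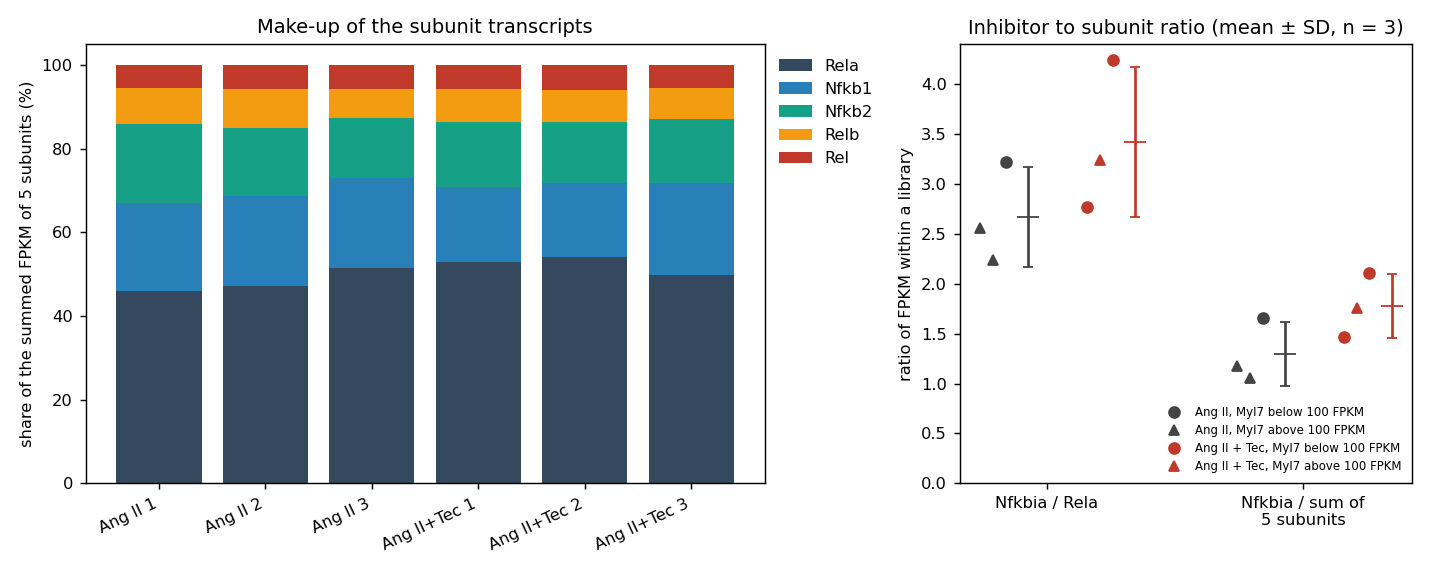
Left, share of each subunit in the summed FPKM of the 5 subunits (%, stacked bars, 1 per heart). Right, ratio of Nfkbia to Rela and to the sum of the 5 subunits within each heart, with the mean ± SD (n = 3); the groups overlap in both ratios.

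In FPKM as deposited, most of the family was higher in the libraries with atrial transcripts. The 3 libraries with Myl7 above 100 FPKM were all above the other 3 for 8 of the 10 genes, namely the 5 subunits, Nfkbie, Nfkbiz and Tnfaip3. Among tested genes this held for 42.4% of all genes and for 6 of the 8 members. After scaling by the median of ratios it held for 13.0% of all tested genes and for 4 of the 10 genes (Rel, Relb, Nfkbie and Nfkbiz), of which 3 were tested. The summed subunits were at 21.1, 20.7 and 18.3 FPKM in the 3 libraries with atrial transcripts and at 13.4, 14.5 and 13.2 FPKM in the others. On the log2 scale, libraries with atrial transcripts were higher by 0.63 for Nfkbiz, 0.49 for Nfkb2 and 0.43 for Rela, and by 0.13 for Nfkbia, while Nfkbib was at -0.066. This difference was larger in size than that between Ang II + Tec and Ang II for 9 of the 10 genes, Nfkbia being the exception. Both differences are of FPKM as deposited, and the share of all tested genes with this order was not counted. Scaling by the median of ratios divided Ang II 1, Ang II 2 and Ang II + Tec 2 by 1.16, 1.20 and 1.035. It divided Ang II 3, Ang II + Tec 1 and Ang II + Tec 3 by 0.941, 0.863 and 0.881.

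Within libraries of like content, the difference between Ang II + Tec and Ang II was smaller in the libraries without atrial transcripts for each subunit but Rela. Among the 3 libraries with atrial transcripts (2 Ang II, 1 Ang II + Tec) the log2 difference was -0.36 for Nfkb1, -0.34 for Nfkb2, -0.26 for Relb, -0.52 for Nfkbiz and 0.019 for Rela. Among the 3 others (1 Ang II, 2 Ang II + Tec) it was -0.047 for Nfkb1, 0.11 for Nfkb2, 0.10 for Relb, -0.0094 for Nfkbiz and 0.042 for Rela. Nfkbia was higher with Tec in both, by 0.44 and 0.13. The mean was lower for 7 of the 10 genes in the first class and for 3 of 10 in the second, against 68.05% and 69.64% of all tested genes. With a term for atrial transcripts in the limma fit, chosen after seeing the data, the log2 fold change was -0.20 for Nfkb1 (limma adjusted p = 0.301), -0.27 for Nfkbiz (0.413) and 0.29 for Nfkbia (0.305).

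**Figure D4:**
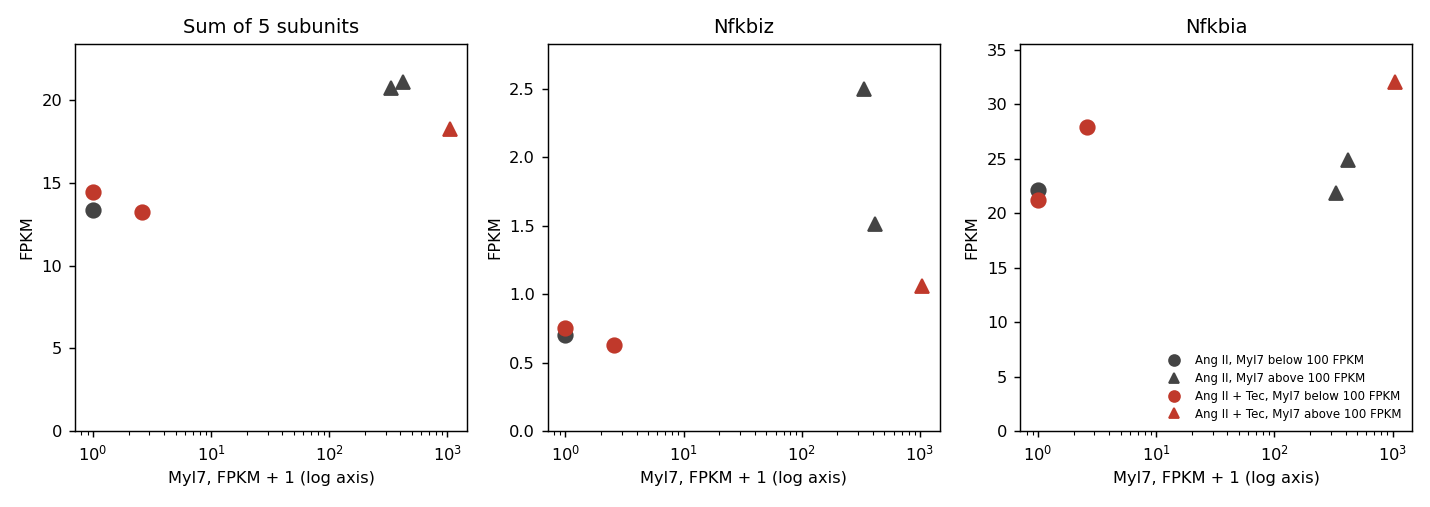
Summed FPKM of the 5 subunits, FPKM of Nfkbiz and FPKM of Nfkbia (y axes) against Myl7 (FPKM + 1, log axis) in the 6 hearts. The 3 hearts with Myl7 above 100 FPKM lie above the other 3 for the subunits (18.3 to 21.1 against 13.2 to 14.5 FPKM) and for Nfkbiz, and not for Nfkbia.

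Markers of other cell types differed between the libraries as well. The summed FPKM of 12 pan-leukocyte and myeloid markers was 309, 484 and 237 with Ang II and 170, 165 and 181 with Ang II + Tec. All 11 tested markers of this list had a lower mean and an unadjusted limma p under 0.05, with a median log2 fold change of -0.84, and for 10 of them the groups did not overlap. Over all tested genes, 80.0% had a lower mean and 16.5% were lower at an unadjusted limma p under 0.05. For 18.9% the groups did not overlap in the lower direction. The lowest p-values were those of C1qa, a complement subunit of macrophages (-1.13, limma adjusted p = 0.154), and Tyrobp, a myeloid signalling adaptor (-1.19, 0.185). The 8 fibroblast markers summed to 775, 1029 and 172 FPKM with Ang II and to 141, 233 and 156 with Ang II + Tec. Their median log2 fold change was -1.99, with 5 of 8 lower at an unadjusted limma p under 0.05, and Col3a1 (-2.72, limma adjusted p = 0.220) and Postn (-3.02, 0.224), both matrix genes, had the lowest p-values. The groups did not overlap for 1 of these 8 genes, and Ang II 3 lay within the Ang II + Tec range of the sum. For 7 of 8 genes the 3 libraries with Myl7 above 100 FPKM were all above the other 3. This order held for 0 of the 11 myeloid markers and for 42.4% of all tested genes. Of 12 lymphocyte and neutrophil markers, 1 (S100a9, log2 fold change 0.22, limma adjusted p = 0.781) was abundant enough to be tested, the sum was 0.94 to 3.82 FPKM, and Ly6g was listed at 0 in all 6 hearts. The part of these cells in the levels of the NFκB genes was not tested.

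The ventricular and endothelial markers differed less than the myeloid ones. The 8 ventricular markers summed to 8724 to 10745 FPKM with Ang II and 9240 to 10312 with Ang II + Tec, as in heart tissue, and 1 of 8 (Myh6, 0.51, limma adjusted p = 0.268) was higher at an unadjusted p under 0.05, followed by Tnnt2 (-0.27, 0.274). Endothelial markers summed to 124 to 131 FPKM against 110 to 120 FPKM. Of these 8 genes, Egfl7 (-0.30, limma adjusted p = 0.242) and Kdr (-0.33, 0.259) were lower at an unadjusted p under 0.05. At this limit 16.5% of all tested genes were lower and 2.09% were higher. The 4 atrial markers had a median of -1.82, led by Nppa (-1.69, limma adjusted p = 0.532) and Myl4 (-2.30, 0.593), with no p under 0.05. Of 12 immediate early genes, which mark acute stimulation or handling, 10 were tested. A lower mean was found for 4 of them, against 80.0% of all tested genes, and none had an unadjusted p under 0.05. Nr4a1 (0.82, limma adjusted p = 0.284) and Ier2 (-0.39, 0.286) had the lowest.

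The genes around the family were then counted, from 4 lists of 76 genes, of which 61 were tested. A lower mean was found for 55 of 61, against 80.0% of all tested genes. An unadjusted limma p under 0.05 was reached by 10 of 61, all lower with Tec, against 16.5% of all tested genes, so the share was at the background. None had an adjusted p under 0.05. The groups did not overlap for 7 of 61, all lower, against 18.9%.

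The IKK complex and its upstream kinases carry the signal to IκB. Of 12 genes 11 were tested, 10 had a lower mean, none had an unadjusted p under 0.05, and the median log2 fold change was -0.13. Tab1, a partner of the kinase TAK1, was lowest in p (-0.25, limma adjusted p = 0.282), followed by Map3k3 (-0.30, 0.337). Of 16 receptor adaptors and ubiquitin ligases, all were tested, 14 had a lower mean and the median was -0.23. Tradd, the adaptor of the TNF receptor, was at 3.80, 5.19 and 2.35 FPKM with Ang II and 1.86, 2.36 and 1.77 FPKM with Ang II + Tec (-0.63, limma adjusted p = 0.232), and Ang II 3 lay just below Ang II + Tec 2. Traf5 followed (-0.25, 0.297).

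Of 16 further brakes on the pathway, 13 were tested, and 13 of 13 had a lower mean, with a median of -0.22. Commd1, which promotes the removal of p65 from chromatin, was at 8.97, 9.12 and 8.15 FPKM with Ang II and at 7.56, 5.83 and 5.86 FPKM with Ang II + Tec, with no overlap (-0.40, limma adjusted p = 0.226). Tnip1, which works together with A20, was at 13.46, 12.80 and 7.04 FPKM against 6.10, 8.73 and 5.29 FPKM (-0.63, limma adjusted p = 0.265). Tnip1 was high in Ang II 1 and Ang II 2, like Nfkbiz, and Ang II 3 lay among the Ang II + Tec hearts.

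Of 32 induced target genes, 21 were tested, 18 had a lower mean and 7 had an unadjusted p under 0.05, all lower, with a median of -0.23. Over all tested genes 80.0% had a lower mean and 16.5% were lower at an unadjusted p under 0.05. Csf1, the macrophage growth factor, was at 11.65, 12.14 and 8.62 FPKM with Ang II and 5.85, 7.02 and 5.92 FPKM with Ang II + Tec (-0.69, limma adjusted p = 0.185). Plau, the urokinase gene, was at 2.07, 2.32 and 1.99 FPKM against 1.44, 1.14 and 1.07 FPKM (-0.50, limma adjusted p = 0.188). In both genes every Ang II heart was above every Ang II + Tec heart, which was not so for any of the 10 NFκB genes. The other 5, named after their values were seen, were Ccl2, Bcl2a1b, Ier3, Tap1 and Psmb9. The cytokine genes Il6, Tnf and Il1b, named here for their role, were too low to be tested.

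**Figure D5:**
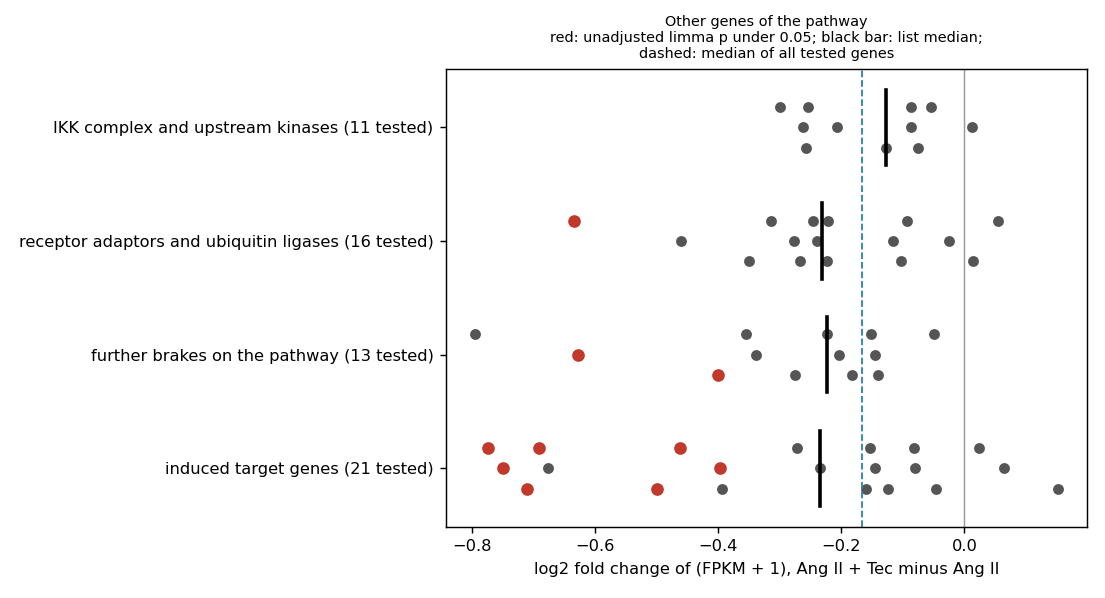
Log2 fold change of (FPKM + 1), Ang II + Tec minus Ang II, of the 61 tested genes in 4 lists around the NFκB family, 1 point per gene. Red points are the 10 genes with an unadjusted limma p under 0.05, black bars the list medians (-0.13, -0.23, -0.22 and -0.23 from top to bottom), and the dashed line the median of all tested genes (-0.17).

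The promoters of the family were read because several of its members are known targets of NFκB. A RefSeq window of 250 bases before to 50 bases after a start (GRCm38.p6) was at hand for 7 of the 10 genes, Nfkb1, Relb and Nfkbiz not being matched. The κB consensus, searched on both strands with overlapping matches counted, was found for 5 of these 7 genes. It was found in 1388 of 27025 genes (5.14%) and in 1480 of 32851 windows (4.51%) overall. For 4 genes, 1 match that lay outside annotated exons is given here in the direction of transcription, with the match in capitals.
Nfkbia: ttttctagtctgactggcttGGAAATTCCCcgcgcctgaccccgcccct
Tnfaip3: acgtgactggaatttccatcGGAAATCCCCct
Rel: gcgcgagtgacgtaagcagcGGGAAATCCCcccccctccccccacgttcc
Nfkbie: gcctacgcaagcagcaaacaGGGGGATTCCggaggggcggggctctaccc
The first base of the match lay 29 bases before the start for Nfkbia (minus strand, chr12:55492648-55492696), 12 for Tnfaip3 (minus strand, chr10:19015411-19015442), 92 for Rel (minus strand, chr11:23771032-23771081) and 106 for Nfkbie (plus strand, chr17:45555574-45555623). Nfkb2 also held matches, in 3 of its windows, and Rela and Nfkbib held none in theirs. Of the 5 genes with a match, only Nfkbia had a higher mean with Tec. In FPKM as deposited, Rel, Nfkb2, Nfkbie and Tnfaip3 were higher in every library with atrial transcripts than in the others. After scaling by the median of ratios, Rel and Nfkbie kept this order, and Nfkb2 and Tnfaip3 did not. Rela, without a match, also had this order in FPKM as deposited and not after scaling. The order held for 42.4% of all tested genes as deposited and for 13.0% after scaling. A match describes letters in a window and does not show binding.

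Among all tested genes, those with a pattern most like the 3 most variable members were found by the root mean square difference of centred log2(FPKM + 1) over the 6 hearts. For Nfkbiz (range 1.10) they were Atp6v0e (0.0438), Plekho2 (0.0443) and Twf1 (0.0448). For Nfkbie (range 0.783) they included Ptger4 (0.0275) and Ostf1 (0.0336). For Nfkb2 (range 0.766) they were Prrg2 (0.0441), Nubp2 (0.0514) and Traf3 (0.0516). The likeness is a description over 6 hearts that share 1 difference in atrial content.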

How the data were processed

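Poly(A) RNA of heart tissue from 6 mice was sequenced. Reads were cleaned with Cutadapt and inspected with FastQC by the authors, who deposited FPKM of 30914 genes in 1 column per library. Per the labels, the processing notes name Bowtie 0.12.2, HISAT2 2.0, StringTie 1.3.0 and build mm8, with no role or order. The coordinates were those of GENCODE M21 (GRCm38) for 27947 of 30832 shared genes (90.64%), and for the 10 members except Nfkb1, Nfkbib and Tnfaip3. The depth is unknown, so intervals come from the spread between mice, moderated over all tested genes.

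FPKM were used as deposited. Genes with at least 0.5 FPKM in at least 3 libraries (13089) entered a linear model of log2(FPKM + 1), Ang II + Tec against Ang II (R 4.3.3, limma 3.58.1, moderated with a trend on the mean), with Benjamini-Hochberg adjustment. Fold changes are on that scale, which understates low genes. On simulated data (13089 genes, 200 changed by 2 on the log2 scale), 191 were recovered with 1 false call, and 0 calls were made with no gene changed. The genes were simulated independently of each other, and changes of the size seen in the members were not simulated. The simulation therefore does not show how well such changes, or shifts shared by many genes, would be handled.

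The members and lists were chosen with earlier results of these data known. Named are the 10 members, the 2 tested genes of each other list with the lowest p, and the 3 genes most like each of the 3 most variable members, of which 1 is not reported here. Other scalings, filters, pseudocounts, weights, a replicate block and leaving out each heart were tried. Of the annotation columns of the table, those for name, identifier, position, strand and transcript type were read, and any others were not used.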

Additional observations from a re-analysis of the deposited data

How the results depend on the processing

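Over 17 alternatives, no NFκB gene that entered the fit was called, and 152 of 170 values kept their direction while 18 reversed. The filters, the replicate block and the changes to the moderation leave the fold changes of the members as they were. The directions kept under these settings were therefore fixed in advance. The number of genes called over the whole table (21) was 3 without a filter, 11 with at least 1 FPKM in all libraries, 522 with library weights (a fit that stopped before convergence) and 13 with the atrial term, and ranged from 2 (without Ang II + Tec 2) to 557 (without Ang II 3) when a heart was left out. It was 3 without Ang II 1 or Ang II + Tec 3, 7 without Ang II 2 and 4 without Ang II + Tec 1. The members with a lower mean numbered 5 instead of 9 under quantile normalization and 5 under median-of-ratios scaling. The share of all tested genes with a lower mean was 45.9% and 48.2% in these fits, against 80.0% as reported. The pathway genes with an unadjusted p under 0.05 (10) numbered 6 after quantile normalization, 34 with library weights and, with a heart left out, 2 (without Ang II 1) to 30 (without Ang II 3). They numbered 3 without Ang II 2 or without Ang II + Tec 3. The inhibitors minus subunits difference (-0.18) was -0.45 with library weights, and -0.33 to 0.0054 with a heart left out. Reversed were Rel (0.0027 by the median of ratios, 0.033 by quantiles), Rela (0.10, 0.0998, 0.030 with the atrial term and, with a heart left out, -0.27 to 0.0034, the highest without Ang II + Tec 3), Nfkbib (0.17, 0.17, 0.017 with library weights and, with a heart left out, -0.090 to 0.024, the highest without Ang II + Tec 2) and Tnfaip3 (0.068, 0.092, 0.0089 by the sum of nuclear genes, 0.053 with the atrial term, and, with a heart left out, -0.059 to 0.055). The pathway counts moved with the share of all tested genes at an unadjusted p under 0.05, which was 18.6% as reported, 46.4% with library weights, 43.7% without Ang II 3 and 7.40% without Ang II 1. With library weights Nfkbiz was at -0.84 (limma adjusted p = 0.0315), in a fit where 27.1% of all tested genes had an adjusted p under 0.05. The causes were not tested.

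Whether the replicate numbers pair the hearts was not settled. Same-numbered hearts correlated in their deviations at -0.0394, 0.429 and 0.379, and differently numbered hearts at -0.435 to 0.226. With the replicate number as a block, 22 genes were called over the table, 17 pathway genes had an unadjusted p under 0.05, and 0 of the 8 tested members were called. In that fit 25.3% of all tested genes had an unadjusted limma p under 0.05. Without counts, the precision of Nfkbie and Tnfaip3, both below 0.5 FPKM in most hearts, is limited most.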
